A study of Mus musculus with 2 samples.

Results

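The proteasome genes of the mouse were read in airway epithelium of the fetal lung at the embryonic days labelled E14.5 and E18.5. The members are the genes whose probes carried a file name starting with Psma, Psmb, Psmc, Psmd, Psme, Psmf or Psmg and a digit, without the immunoproteasome and interferon-linked genes Psmb8, Psmb9, Psmb10, Psme1 and Psme2. This name rule took 62 of the 41170 probes and 39 of the 19748 named genes, and it used no measured value. One of the 39 is no proteasome gene. Psmc3ip encodes a partner of recombinases in meiosis and shares only the start of its name with the ATPase Psmc3, so it is left out of all counts below, which are over 38 genes.

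Both samples came from wild-type male CD-1 fetuses, and CD-1 is an outbred stock. Epithelium of the airways inside the lobes was cut with a laser from frozen, stained lung sections, with 1 lung per age, and the RNA was amplified in a single round. The E14.5 material carried Cy3 and the E18.5 material carried Cy5, and both were hybridised to 1 array. The study asked which genes act downstream of FOXJ1, a transcription factor of motile cilia, and the age comparison spans the onset of cilia formation in these airways. No sample was repeated and no dye swap was made, so age, lung and dye cannot be told apart, no difference below has a replicate check, and no p-value was computed.

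The 26S proteasome is the ATP-dependent protease that degrades ubiquitin-tagged proteins in the cytosol and nucleus. Its barrel-shaped core particle is built of outer rings of alpha subunits, which gate the entry, and inner rings of beta subunits, of which Psmb5, Psmb6 and Psmb7 carry the catalytic sites. A regulatory particle caps the barrel. Its ring of ATPases (the Psmc genes) unfolds substrates, and its non-ATPase subunits (most Psmd genes) bind and remove ubiquitin. Dedicated chaperones assemble the particles and leave them, and alternative caps such as the PA28 gamma ring (Psme3) and PA200 (Psme4) can replace the regulatory particle. Dividing cells use the proteasome to remove cyclins and other regulators marked by the anaphase-promoting complex.

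Intensities below are linear, background-corrected and loess-normalized values of a gene's brightest probe that stood well above background. A log2 ratio is E18.5 over E14.5, so that a value below 0 means a lower signal at E18.5. In bulk material, fewer cells of a type and less RNA per cell cannot be told apart. The 4 genes with the lowest log2 ratios whose probes cross an exon junction by their deposited alignment are shown by their 60-base probes, since 4 of the 5 largest decreases in signal were read by them. Psmb2 was read at chr4:126186516-126189359 (plus strand), Psma4 at chr9:54753071-54754417 (plus strand), Psmc4 at chr7:27750873-27751114 (minus strand) and Psmb7 at chr2:38435455-38455874 (minus strand), all on mm8.
Psmb2: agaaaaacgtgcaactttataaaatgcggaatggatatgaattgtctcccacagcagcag
Psma4: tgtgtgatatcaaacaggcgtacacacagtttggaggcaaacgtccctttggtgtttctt
Psmc4: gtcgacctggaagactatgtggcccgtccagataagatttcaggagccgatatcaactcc
Psmb7: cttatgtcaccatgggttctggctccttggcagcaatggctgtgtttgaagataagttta

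With loess, most subunits of the 26S particle gave a lower signal at E18.5 than at E14.5, by a modest amount in each part. The median log2 ratio over the 32 members in the 26S particle was -0.48, with quartiles of -0.71 and -0.28, and 26 of the 32 lay below 0. Over all 17315 genes with a ratio, the median was 0.06, with quartiles of -0.40 and 0.65, and 45.9% lay below 0. The 6 members outside the 26S particle (base assembly chaperones, alternative caps and an inhibitor) had a median of 0.51, with 5 of 6 above 0. Of these, Psme4 at 0.03 was near equal, and Psmf1 fell to 0.14 when read by the median of its probes. The core assembly chaperones Psmg1, Psmg2 and Psmg3, outside the rule by their older names, lay at -0.36, -0.75 and -0.09. Over all 38 members, the log2 ratio ranged from -1.43 for Psmb2 to 0.91 for Psmf1, with a median of -0.38. When the array was centred on its median in place of loess, the alpha and beta medians were only -0.13 and -0.16. The ATPases then had a median of -0.28 and the non-ATPases one of -0.42.

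Past 2-fold, the members gave fewer calls than the array as a whole. One member was lower by 2-fold or more (1 of 38, 2.63%), against 10.0% of all genes. None was higher by that much (0 of 38, 0.00%), against 17.2% of all genes. The member past that limit was Psmb2 at -1.43, and the next lowest, Psmc4 at -0.999, was just short of 2-fold. At 1.5-fold the lower calls were 11 of 38 (28.9%), against 19.1% of all genes, and the higher calls were 3 of 38 (7.89%), against 26.8%. All 11 lower calls were 26S subunits, and the 3 higher calls (Psmd10, Psme3 and Psmf1) lay outside the 26S particle. When the array was centred on its median in place of loess, the lower calls were 6 of 38 (15.8%), against 18.7% of all genes, so the excess of lower calls did not hold. That centring also added the 26S subunit Psmb4, at 0.77, to the higher calls. Psmf1 left them, at 0.14, when each gene was read by the median of its probes.

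**Figure D1:**
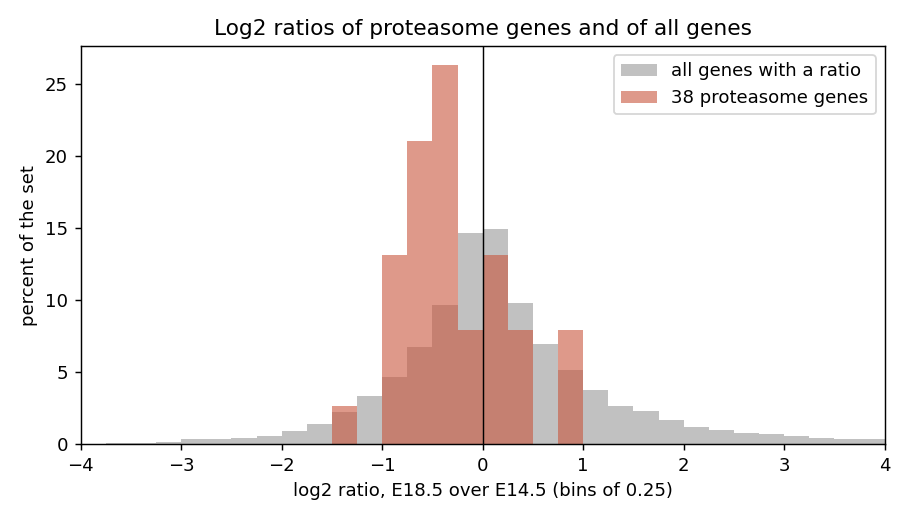
Percent of genes in each 0.25-wide bin of the log2 ratio of E18.5 over E14.5, for all 17315 genes with a ratio and for the 38 proteasome genes; the axis is drawn from -4 to 4. The proteasome genes pile up just below 0, with a median of -0.38, and lie in a narrower range than all genes, whose median is 0.06.

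Because loess acts by brightness, the members were also set beside genes whose probes were as bright. The median of the average log2 intensity over both ages was 14.7 for the members and 10.9 for all genes. The comparison set held the 2133 genes whose average log2 intensity fell between the members' quartiles (13.67 to 15.53). These had a median log2 ratio of 0.02 and 49.2% of them below 0, and 16.4% of them were past 2-fold upward and 12.3% downward. At 1.5-fold, 22.9% of these equally bright genes were lower, against the members' 28.9%, and 27.8% were higher, against the members' 7.89%. With median centring 394 of the same 2133 genes were lower and 696 higher at 1.5-fold, against 6 and 4 of the 38 members (15.8% and 10.5%). The members' share of higher calls was thus the smaller one under both normalizations, whereas their share of lower calls was larger with loess and smaller with median centring.

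The errors that could be measured on the array were technical only. Repeated spots of a probe had a median SD of 0.05 in the log2 ratio (245 probes), and different probes of a gene had a median SD of 0.33 (6890 genes). The scanner software's own error of the members' log2 ratios was 0.20 to 0.25. A single member's log2 ratio of -0.3 or 0.3 is therefore within the spread between probes, whereas the 5 members near or past -0.9 (Psmb2, Psmc4, Psma4, Psmd2 and Psmb7) lie beyond it. With loess, 38 of the 45 usable probes of 26S members had a log2 ratio below 0. Some of these probes read the same gene, so they are not separate readings of members. Among all 59 usable probes under the name rule, those of Psmc3ip included, 42 lay below 0. A further 3 member probes (one each for Psma2, Psmd11 and Psmd14) were not well above background at either age.

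**Figure D2:**
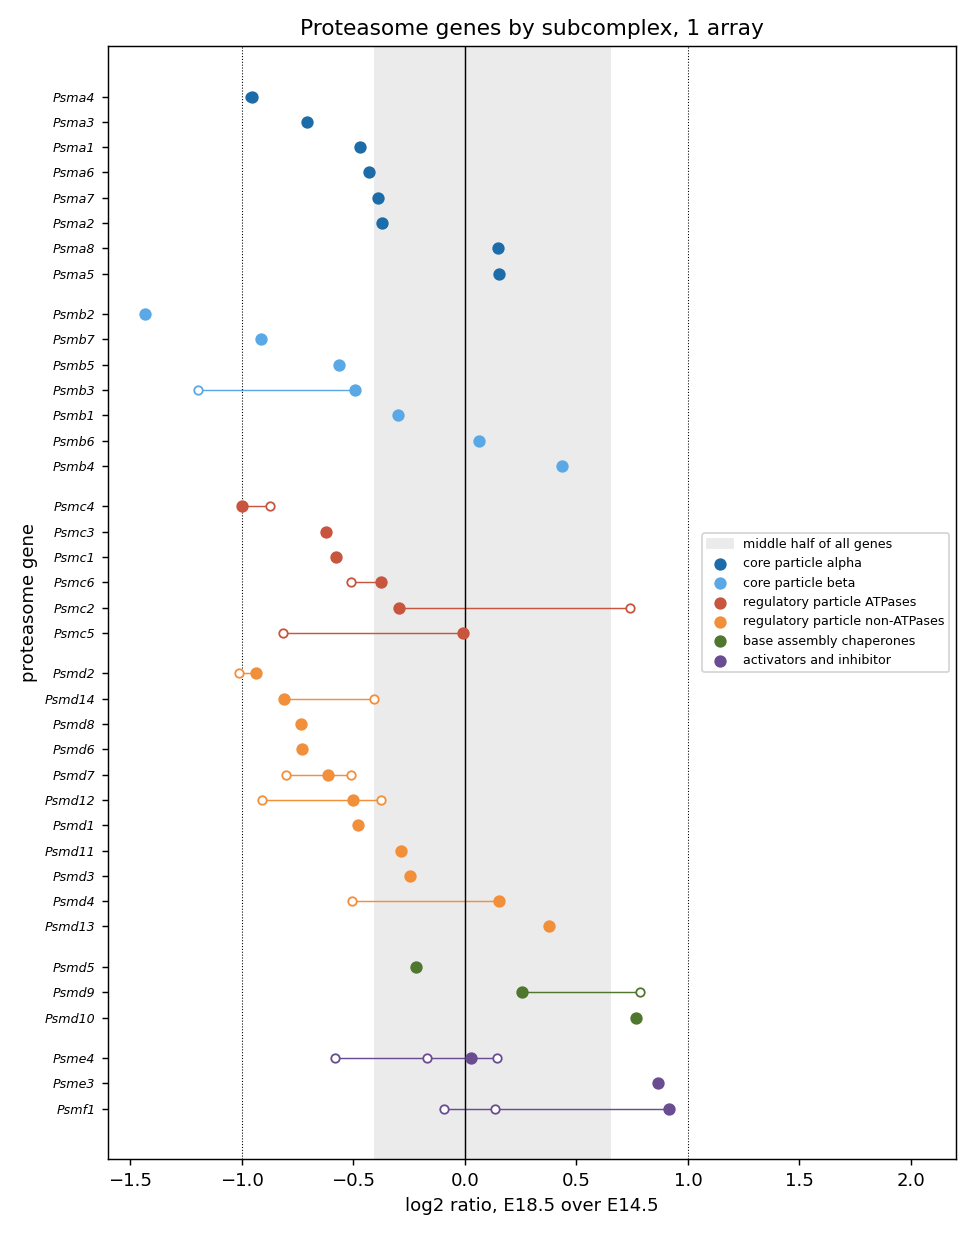
Log2 ratio of E18.5 over E14.5 for each of the 38 proteasome genes, grouped by subcomplex; filled points are the brightest usable probe, open points joined by a line are a gene's other usable probes, the grey band is the interquartile range of all genes (-0.40 to 0.65) and dotted lines mark 2-fold. The ATPases' filled points lie at or below 0 (Psmc5 at -0.01 turned to 0.09 with median centring), whereas Psmd10, Psme3 and Psmf1 lie at 0.77 to 0.91.

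The alpha subunits, which form the outer rings of the core and its gate, had a median log2 ratio of -0.41, with 6 of 8 below 0. Psma4 was lowest, with an intensity of 26534 at E14.5 and 13680 at E18.5. That is a log2 ratio of -0.96, 1.94-fold lower, and its other probe gave -0.97. Psma3 followed at 33826 and 20693, a log2 ratio of -0.71. Psma1 had 70861 and 51069, and Psma2 had 82442 and 63653. Psma6 had 28413 and 21102, and Psma7 had 55021 and 42028. Psma1, Psma6, Psma7 and Psma2 lay together at log2 ratios of -0.47, -0.43, -0.39 and -0.37, and neighbours in that order differed by less than the scanner error. Psma5 was the highest of the broadly expressed alpha subunits, at 76745 and 85320, a log2 ratio of 0.15. Psma8 encodes the alpha subunit of the testis proteasome and takes the place of Psma7 there. It gave 205 and 227, and its log2 ratio of 0.15 is smaller than the spread between probes. A list of 6 germ-cell markers had summed intensities of 653 and 688, and 4 and 6 of the 6 were above background at the respective ages.

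The beta subunits had the widest range of any part of the 26S particle, from Psmb2 at -1.43 to Psmb4 at 0.44, with a median of -0.49 and 5 of 7 below 0. Psmb2, a structural subunit of the inner ring, had an intensity of 11422 at E14.5 and 4229 at E18.5, which is 2.70-fold lower. It is the only member past 2-fold with normexp and loess, and it rests on 1 probe. In the scanner software's ratio it stood at -1.63, and Psmc4 (-1.12), Psma4 (-1.10) and Psmd2 (-1.02) were past 2-fold too. That made 4 of 38 members (10.5%) at least 2-fold lower by this ratio, against 15.5% of all genes and 14.3% of equally bright genes. Psmb4, which also has no active catalytic site, stood at 55811 and 75484, 1.35-fold higher. Psmb3 gave 75488 and 53596 by its brighter probe, a log2 ratio of -0.49. Its second probe gave 39602 and 17268, a log2 ratio of -1.20, so both put it lower at E18.5 but by unequal amounts. Psmb1 had 55310 and 44876, a log2 ratio of -0.30.

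The catalytic subunits, each read by 1 probe, gave unequal log2 ratios. Psmb7, which carries the trypsin-like activity, had 33936 at E14.5 and 17997 at E18.5, a log2 ratio of -0.92, 1.89-fold lower. Psmb5, the chymotrypsin-like subunit and the main target of bortezomib, had 34167 and 23084, a log2 ratio of -0.57, 1.48-fold lower. Psmb6, the caspase-like subunit, had 55581 and 58055, a log2 ratio of 0.06 (chr11:70343707-70343766, plus strand, mm8) that turned to -0.03 in the scanner software's ratio. Psmb7 and Psmb5 differ from each other by about the median SD between probes of a gene, and both lie further than that from Psmb6. A difference between genes carries the probe spread of both, so that SD is a lenient measure here. With 1 probe each, whether the subunits differ beyond probe effects was not tested.

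The ATPases of the regulatory particle all lay below 0, at a median of -0.48 over 6 genes. Psmc4 was lowest, with 33927 at E14.5 and 16980 at E18.5, a log2 ratio of -0.999, and a second probe gave -0.87. Psmc3 had 14940 and 9705 and Psmc1 had 21457 and 14383, log2 ratios of -0.62 and -0.58. Psmc6 had 54720 and 42201, a log2 ratio of -0.37, and its second probe gave -0.51. Psmc5 was the closest to equal, at 16351 and 16257 with a log2 ratio of -0.01, whereas its dimmer probe gave 7077 and 4016, a log2 ratio of -0.82. Psmc2 had -0.30 by its bright probe (34081 and 27746) and 0.74 by a dim one (195 and 325). Psmc5 turned to 0.09 with median centring, and Psmc2 turned to 0.22 when read by the median of its probes, so the count of 6 of 6 does not hold under every way of processing.

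The non-ATPase subunits had a median of -0.50, with 9 of 11 below 0, and gave 5 of the 11 lower calls at 1.5-fold. Psmd2, the large scaffold that docks ubiquitin shuttles, was lowest at 40301 at E14.5 and 21064 at E18.5, a log2 ratio of -0.94. The probe shown by these values lies at chr16:20576730-20576789 (plus strand) on mm8, and the second probe gave -1.01. Psmd14, the deubiquitinase that cuts the ubiquitin chain from a substrate as it enters, stood at 36008 and 20504, a log2 ratio of -0.81, and its second probe gave -0.41. The lid subunits Psmd8, Psmd6 and Psmd7 had log2 ratios of -0.73, -0.73 and -0.61, from 33114 and 19916, 28499 and 17173, and 34893 and 22828. The other probes of Psmd7 gave -0.80 and -0.51. These 5 genes made up the group's lower calls, and each lies further from 0 than the spread between probes. Psmd12 followed at 43962 and 31083, a log2 ratio of -0.50, with other probes at -0.91 and -0.38. Psmd1, a scaffold of the base like Psmd2, had 11447 and 8202, a log2 ratio of -0.48. Psmd11 and Psmd3 were nearer to equal, at -0.29 and -0.25, and Psmd3 turned to 0.02 with median centring. Psmd13, another lid subunit, was the highest at 4250 and 5524, a log2 ratio of 0.38. The ubiquitin receptor Psmd4 had 17992 and 20017, a log2 ratio of 0.15, and a dim second probe at 843 and 593 gave -0.51, so its direction is unsettled.

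**Figure D3:**
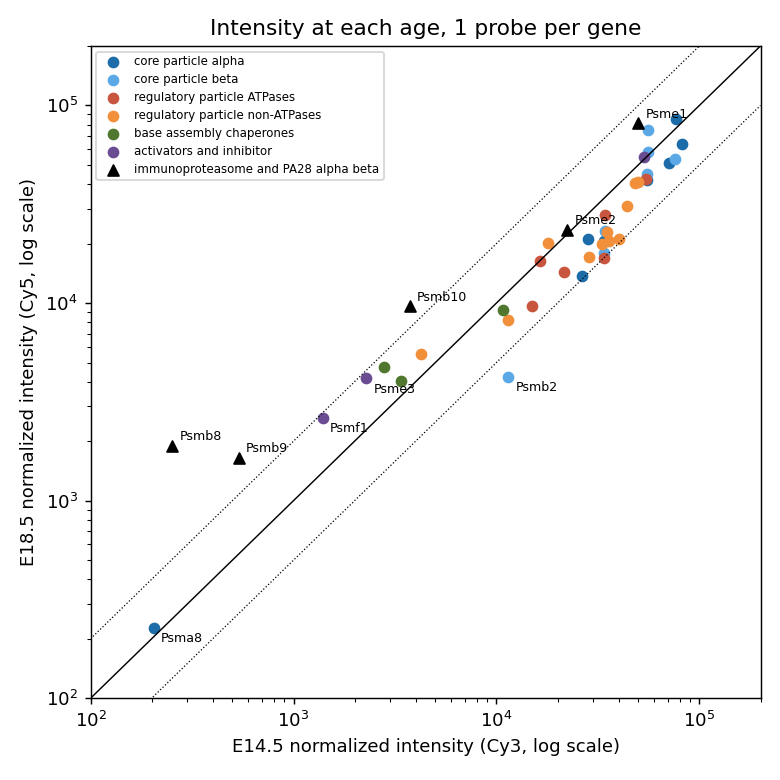
Normalized intensity at E14.5 (x axis, Cy3) against E18.5 (y axis, Cy5), both on log scales, for each proteasome gene by subcomplex and for the 5 immunoproteasome and PA28 alpha beta genes (black triangles); lines mark equal intensity and 2-fold. Most 26S subunits lie in a bright cloud just under the line of equality, whereas Psmb8 lies far above it, at 252 and 1900.

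The members outside the 26S particle were mostly higher at E18.5. Of the chaperones that build the base of the regulatory particle, Psmd10 (gankyrin) had 2780 at E14.5 and 4733 at E18.5, a log2 ratio of 0.77, 1.70-fold higher. Its probe lies at chrX:136295572-136295631 (minus strand) on mm8. Psmd9 had 3386 and 4049, a log2 ratio of 0.26, and its second probe gave 0.79. Psmd5, the remaining base chaperone, had 10795 and 9264, a log2 ratio of -0.22. The group's median was 0.26 over 3 genes.

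Psme3, the PA28 gamma cap of nuclear proteasomes, had 2284 at E14.5 and 4157 at E18.5, a log2 ratio of 0.86, 1.82-fold higher. Its probe lies at chr11:101138961-101139021 on mm8. Psme4, the PA200 cap, had 53568 and 54595, a log2 ratio of 0.03, and its other probes gave values from -0.58 to 0.15. Psmf1 encodes PI31, a protein first described as an inhibitor of the core particle. It was the highest member at 1396 and 2631, a log2 ratio of 0.91, 1.88-fold higher, at chr2:151408525-151408584 (minus strand) on mm8. Its other probes did not show that, with 1490 and 1637 (0.14) for one and 505 and 474 (-0.09) for the other. The group's median was 0.86 by the brightest probes and 0.14 when each gene was read by the median of its probes. Psme3 was read by 1 probe only.

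Agreement between probes sets how firmly single genes can be read. Of the 15 genes with at least 2 usable probes (Psmc3ip among them), 4 had probes of opposite sign (Psmc2, Psmd4, Psme4 and Psmf1), and 2 had probes 1 or more apart on the log2 scale (Psmc2 by 1.04 and Psmf1 by 1.01). Psmc3ip itself had 3082 at E14.5 and 3963 at E18.5, a log2 ratio of 0.36, and its other probe gave 0.10. Probes of 60 bases can also bind messages of processed pseudogenes, and this could not be checked for the proteasome genes without a genome of the probes' build.

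The immunoproteasome and PA28 alpha beta genes, left out of the members by the name rule, mostly went the other way from most 26S subunits. By 1.5-fold or more, 4 of 5 were higher at E18.5, against 26.8% of all genes. In immune cells, and under interferon, Psmb8, Psmb9 and Psmb10 take the places of Psmb5, Psmb6 and Psmb7, and Psme1 with Psme2 form the PA28 alpha beta cap. Psmb8 had 252 at E14.5 and 1900 at E18.5, a log2 ratio of 2.91, 7.53-fold higher. Psmb9 had 537 and 1652, a log2 ratio of 1.62, 3.08-fold higher. Psmb10 had 3744 and 9647, a log2 ratio of 1.37, 2.58-fold higher. All 3 replacement subunits were thus past 2-fold higher, against 17.2% of all genes, and the constitutive partners lay at -0.57, 0.06 and -0.92. Of the cap, Psme1 was at 49875 and 81274, a log2 ratio of 0.70, and Psme2 at 22373 and 23486, a log2 ratio of 0.07. Another Psme2 probe gave 21604 and 18772, a log2 ratio of -0.20, so its direction is unsettled.

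Leukocyte messages moved with these genes. Markers of leukocytes (10 genes) summed to an intensity of 7745 in the younger and 29469 in the older sample. Of these, 8 of 10 were past 2-fold upward, the median log2 ratio was 2.03, and every one was above background at both ages. Endothelial markers (10 genes) summed to 30080 and 130689, with 4 of 10 past 2-fold upward and a median log2 ratio of 0.86. Of these sums, Kdr alone gave 4090 and 71669. The part of leukocytes and endothelium in the immunoproteasome values was not tested. Epithelial markers were all above background at both ages, with a summed intensity of 354607 and 569502 and a median log2 ratio of 0.56. Mesenchymal markers (10 genes) summed to 497747 and 433778, with a median log2 ratio of -0.24. Without the smooth muscle gene Acta2 the other 9 summed to 305450 and 366782. Erythroid markers (9 genes) summed to 130877 and 525489, with 3 past 2-fold upward and 3 downward.

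Psmb5 and Psmb8 are paralogs, so 1 probe of each was set side by side to compare their bases. Whether a probe could read the other gene's message was not tested, since probes and not whole messages were aligned. Capitals mark bases that are the same in the best alignment without gaps, which pairs 31 of 50 aligned bases (62.0%). The Psmb5 probe lies at chr14:53568529-53568588 (minus strand) and the Psmb8 probe at chr17:33811038-33811097 (plus strand) on mm8. This Psmb8 probe, the dimmer of its pair, had a log2 ratio of 2.85, and the Psmb5 probe had -0.57.
Psmb5: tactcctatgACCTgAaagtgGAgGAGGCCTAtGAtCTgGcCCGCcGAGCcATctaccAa
Psmb8: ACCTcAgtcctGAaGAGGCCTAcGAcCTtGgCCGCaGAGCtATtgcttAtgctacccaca

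Further proteasome genes with names outside the rule were mostly lower at E18.5 as well, by their brightest probes. Of 11 measured genes for associated factors, 10 lay below 0, against 45.9% of all genes, and the median was -0.25. Among the 10, Adrm1 (-0.09), Pithd1 (-0.24) and Zfand5 (-0.09) had other probes above 0. These gave 0.23 for Adrm1, 0.28 for Pithd1, and 0.21 and 0.67 for Zfand5. The other probes of Usp14, Ube3c and Txnl1 lay below 0. Uchl5, a deubiquitinase bound to the regulatory particle, was the only one past 2-fold, at 26452 and 10798, a log2 ratio of -1.29, 2.45-fold lower. Usp14, the other deubiquitinase that docks there, had -0.70, and Pomp, the maturation factor of the core particle, had -0.31. Ecpas, which ties the core to the cap, was the highest at 0.71, but its other probes lay between -0.16 and 0.28. Of the chaperones that assemble the core particle, Psmg2 had 20872 and 12419, a log2 ratio of -0.75, Psmg1 had -0.36 and Psmg3 had -0.09.

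Genes known to control proteasome transcription were mixed, and 4 of 11 were past 2-fold upward, against 17.2% of all genes. NRF1, encoded by Nfe2l1, is released from the endoplasmic reticulum membrane and cut by DDI2 to raise proteasome transcription when the proteasome is impaired. Nfe2l1 had 13661 at E14.5 and 11145 at E18.5, a log2 ratio of -0.29. Nfe2l2, which encodes the oxidative stress factor NRF2, had 22210 and 59064, a log2 ratio of 1.41, 2.66-fold higher, and its other probes gave 1.20 and 1.36. Ngly1, the enzyme that strips sugars from NRF1, had 5889 and 14979, a log2 ratio of 1.35. Maff, a small MAF partner of these factors, had 2717 and 24813, a log2 ratio of 3.19, 9.13-fold higher. Nfe2l3 was 2.14-fold higher by its brighter probe, with 0.22 by the other. Over the list of 11 genes the median was 0.49, and none was past 2-fold downward (0 of 11), against 10.0% of all genes. Sel1l, which acts in protein export from the endoplasmic reticulum for degradation, was lowest at -0.55, whereas its other probes gave 0.05 and 0.15.

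Upstream of the proteasome, the ubiquitin genes and E1 enzymes had a median of 0.62. The E1 enzyme gene Uba1 was lowest at -1.14, but its second probe gave -0.08, so that call does not hold across probes. The shuttles that carry substrates to the proteasome and the p97 machinery had a median of -0.38 over 12 genes. Ubqln4 and Ubqln2, both ubiquilins, were 3.48-fold and 2.34-fold lower. The 17 genes of the anaphase-promoting complex and its partners had a median of -0.45, with 4 past 2-fold downward and 0 upward. Its mitotic E2 enzyme gene Ube2c had 38312 and 2424, a log2 ratio of -3.98, its second E2 gene Ube2s had -1.57, and its activator Cdc20 had -1.26. Anapc10, past 2-fold at -1.05, had another probe at -0.09.

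Other large housekeeping complexes were taken as a yardstick. The COP9 signalosome, a relative of the lid, had a median of -0.15 over 9 genes, ranging from Cops7b at -0.80 to Cops7a at 0.32. The CCT chaperonin had a median of -0.14 over 8 genes, which turned to 0.19 with median centring, and its lowest and highest genes were Cct6a at -1.09 and Cct5 at 0.64. The eIF3 complex had a median of 0.23 over 13 genes, from Eif3a at -1.12, whose other probe gave 0.79, to Eif3f at 0.88. The median of the 26S subunits, -0.48, was lower than each of these, and was not tested against them. Proliferation genes were lower at E18.5, with 15 of 15 past 2-fold downward, a median of -3.07 and a range from Bub1 at -4.08 to Cdk1 at -1.73, whose other probe gave -0.49. Their part in the lower 26S signal was not tested.

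**Figure D4:**
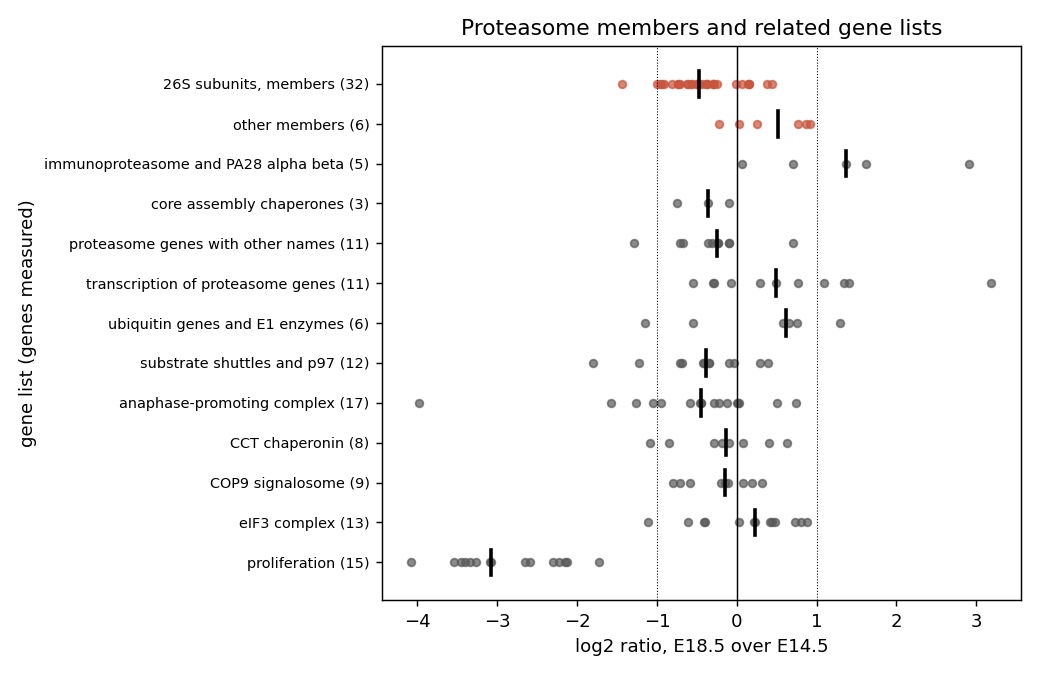
Log2 ratio of E18.5 over E14.5 for the genes of each proteasome group and related list (points) with the list's median (bar); the number of genes measured is in the label and dotted lines mark 2-fold. All list medians lie from -3.07 (proliferation) to 1.37 (immunoproteasome and PA28 alpha beta). That of the 26S subunits (-0.48) is near those of the anaphase-promoting complex (-0.45), substrate shuttles and p97 (-0.38) and core assembly chaperones (-0.36).

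Promoter windows of 300 bases, from 250 before to 50 after the start, were read from RefSeq (GRCm38.p6) for the 31 members that matched by symbol, giving 33 windows. Both strands were searched for 4 motifs, none of which contains another. The ETS-family core CCGGAAG stood in 13 of the 33 windows (39.4%), against 8.86% of all 32851 windows and 19.8% of windows of equally bright genes. In windows of other complexes it stood in 8 of 18 for the anaphase-promoting complex, 5 of 10 for eIF3, 6 of 10 for the COP9 signalosome and 3 of 9 for CCT. The antioxidant response element core TGACNNNGC, the letters read by NRF1 and NRF2 with small MAF proteins, stood in 6 of 33 windows (18.2%), against 12.4% of all windows and 322 of the 2220 windows of equally bright genes. The CCAAT box was in 36.4% of windows (37.4% of all), and the GC box GGGCGG in 57.6% (35.7% of all and 66.7% of equally bright genes).

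Examples are shown because members with the ETS core lie on both sides of 0. Capitals mark the motif, which in Psmd2 stands as its reverse complement CTTCCGG. The strand named is that of the sequence printed. Psmd2 (log2 ratio -0.94) has it at chr16:20651615-20651643 (plus strand), Psmd6 (-0.73) at chr14:14120973-14121001 (minus strand) and Psme3 (0.86) at chr11:101316095-101316123 (plus strand). The antioxidant core is shown for the catalytic subunit Psmb5 (-0.57) at chr14:54618023-54618053 (minus strand) and the chaperone Psmd9 (0.26) at chr5:123228148-123228178 (plus strand), all on GRCm38.p6. A match is a match of letters and says nothing of binding.
Psmd2: tccgcagggcgCTTCCGGtctggaggaca
Psmd6: cagagacgcgaCCGGAAGtcagactggcg
Psme3: gggcacaaggcCCGGAAGctccgacagcc
Psmb5: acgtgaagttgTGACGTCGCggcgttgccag
Psmd9: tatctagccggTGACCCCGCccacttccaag

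The direction of the members was compared over 10 ways of processing the same array. Dropping the filter on dim probes, requiring signal in both channels, and using the file's names left every member's value unchanged. The authors' value table gave the members the same ratios as the scanner software, so the 10 are not independent checks. In all 10, 24 members lay below 0 and 8 lay above 0, and the sign of the other 6 (Psmb6, Psmc2, Psmc5, Psmd3, Psmd4 and Psme4) differed. Of the 32 members in the 26S particle, 23 were below 0 in all 10. Some of these were near 0 with median centring, such as Psmb1 (-0.01), Psmd11 (-0.02) and Psma2 (-0.02). The 26S median went from -0.56 with the scanner software's ratio, where the median of all genes was -0.05, to -0.21 with median centring, where it was 0.06. The 26S median minus that of all genes was -0.54 with normexp and loess, -0.52 with the scanner software's ratio and -0.27 with median centring.

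**Figure D5:**
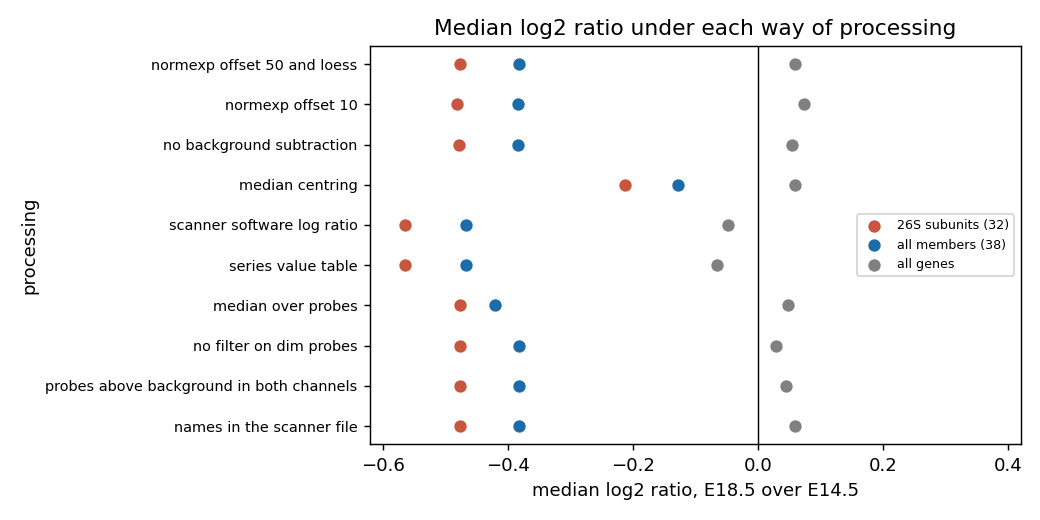
Median log2 ratio of E18.5 over E14.5 (x axis) for the 32 subunits of the 26S particle, all 38 members and all genes under each of 10 ways of processing (y axis). The 26S median lies between -0.56 and -0.21, left of the median of all genes in each.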

How the data were processed

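Both scanner tables given were the same in 116 of 116 columns and were read as 1 array of 45018 spots, 1639 of them controls. Per the file headers, they hold spot mean and background intensity on a linear scale, and the scanner software's processed intensity and log10 ratio of red over green, made by Agilent Feature Extraction (9.5.3.1 per the submitters' processing notes). Flags for outliers, saturation and signal well above background were deposited by the authors. The authors' value table equalled the processed intensity times 0.339, with values under 15 set to 15 and no centring. The medians of its E14.5 and E18.5 columns were 129 and 130.2.

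Here, limma 3.58.1 (R 4.3.3) corrected the background by normexp (offset 50), and a loess curve (span 0.3, 4 iterations) normalized the array's log2 ratios. The offset pulls dim ratios towards 0, and loess would hide a shift common to most genes. Control and outlier spots (160) had weight 0 and were then left out. Repeated spots were averaged, and a gene was given by its brightest probe well above background in at least 1 channel. Names were updated through a RefSeq table (GRCm38.p6), which named 33099 of 41170 probes and left 8071 unnamed. Probe coordinates are on mm8, per the file headers. Python 3.11.15, numpy 2.4.6, pandas 2.3.3 and matplotlib 3.10.9 did the rest. The script was tested on simulated data.

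After background subtraction the median signal of the Cy3 channel (E14.5) was 208.6 and that of Cy5 (E18.5) 281.5. In the respective channels 75.2% and 78.7% of probes were well above background, and 0 were saturated. With 1 array, precision is limited, and calls are by size (2-fold, or 1.5-fold). Named were every member past 2-fold, the extremes of each subcomplex, the catalytic subunits, members whose probes disagree, and the extremes of each related list, some of which are not reported here. Some further members were named to describe their subcomplex. The members and lists were chosen with earlier results of these data known.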

Additional observations from a re-analysis of the deposited data

How the results depend on the processing

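No paired analysis was possible because there was 1 sample per age. Values were called moved when they changed by more than the spread between probes of a gene, or counts by more than 1.5 times. Members at least 2-fold lower were 1 with normexp and loess, 2 with an offset of 10 (Psmb2 and Psmc4), and 4 with the scanner software's ratio and 4 with the authors' value table (Psmb2, Psma4, Psmc4 and Psmd2). These are 2.63%, 5.26%, 10.5% and 10.5% of the 38 members. Over all genes the respective shares were 10.0%, 11.1%, 15.5% and 15.5%. With median centring, members at least 1.5-fold lower were 6 in place of 11, the beta subunits' median was -0.16 in place of -0.49, and genes of related lists at least 2-fold higher were 15 in place of 8. The same centring put the medians of the ubiquitin genes at 1.06 (from 0.62), of CCT at 0.19 (from -0.14) and of eIF3 at 0.56 (from 0.23). Reading each gene by the median of its probes put the median of the activators and inhibitor at 0.14. All genes at least 2-fold lower were 2690 with the scanner software's ratio, against 1738, and the value table gave 2791 higher and 2456 lower, against 2986 and 1738. The other 244 values of groups and counts and 333 values of single members kept within these limits, and 9 values of 8 members moved. Part of the 333 could not move, since some settings left the members' values as they were. Members taken by updated name, an alternative chosen after seeing the data, were 42 (adding Psmb11, Psmg1, Psmg2 and Psmg3), with a median of -0.37.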
